A study of Macaca mulatta with 9 samples.

Results

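The genes described here code for the machinery that carries a signal from a hormone receptor to cyclic AMP and protein kinase A inside the cell. They were chosen by array annotation symbol alone, as probe sets with a single symbol that begins with RGS, GNB, GNG, ADCY, PDE or AKAP and a digit, or with GNAI, GNAO, GNAQ, GNAS, GNA1, PRKAC, PRKAR, PKIA, PKIB or PKIG. The rule found 159 probe sets of 83 genes, out of 24956 probe sets of 14132 genes that had 1 symbol. By family these were 5 genes of G protein alpha subunits, 11 of beta and gamma subunits, 18 of RGS proteins, 9 adenylyl cyclases, 10 of protein kinase A and its inhibitors, 9 A-kinase anchoring proteins and 21 phosphodiesterases. Some symbols fit by letters and not by function: for example, PDE12 is a mitochondrial enzyme that trims RNA tails, GNB1L is a related repeat protein, and RGS7BP and RGS9BP bind RGS proteins.

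RNA came from small antral follicles of young adult female rhesus macaques, taken in the early follicular phase, at or near menses. The control females ate a standard diet, the WSD females a western-style diet, and the WSD+T females a western-style diet with chronically elevated androgen. Each group had 3 arrays labelled as biological replicates, and follicles were pooled by female and ovary (3.7 ± 0.3 follicles per ovary, kind of error not stated), with follicle wall, granulosa cells and the cumulus-oocyte complex lysed together. No group had androgen with the standard diet, so an androgen effect apart from the diet was not measured. Values are linear MAS5 signals from 1-colour Affymetrix arrays, which the authors scaled to a common mean. In such bulk samples, fewer cells of a type and less RNA per cell cannot be told apart.

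As background, a ligand-bound receptor makes a G protein alpha subunit exchange its nucleotide and part from the beta and gamma subunits. Stimulatory alpha subunits switch on adenylyl cyclase, which makes cyclic AMP, whereas inhibitory ones hold it down, and RGS proteins end the signal by speeding the hydrolysis of GTP. Cyclic AMP frees the catalytic subunits of protein kinase A from the regulatory ones, anchoring proteins place the kinase in the cell, and phosphodiesterases break the messenger down. In the follicle this route carries the action of follicle-stimulating hormone and luteinising hormone on granulosa and theca cells, and a high level of cyclic AMP in the oocyte keeps meiosis arrested.

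The 3 groups differed in how alike their arrays were. Pearson correlations between arrays of a group were taken on the log2 scale over 52766 probe sets, tested or not, without the array's control probe sets. They ran from 0.937 to 0.975 in WSD, from 0.975 to 0.977 in control and from 0.990 to 0.994 in WSD+T. WSD replicate 3 had the lowest median signal, 15.9 against up to 23.8 elsewhere. Of the 11 tested macrophage and myeloid markers, out of 12 with a symbol, none was called in any comparison, with at most 3 at an unadjusted limma p under 0.05. Their summed signal nevertheless ranged from 1921 to 9770 in control, from 916 in replicate 3 to 23248 in replicate 2 of WSD, and from 15452 to 17273 in WSD+T. Both tested lymphocyte markers summed to 23.3 to 212 in control, 43.7 to 380 in WSD and 339 to 493 in WSD+T. All granulosa (7), theca (3) and oocyte (5) markers with a symbol were tested. The granulosa markers summed to 10690 to 15055 in control, 6287 to 10693 in WSD and 8420 to 10166 in WSD+T, and the theca markers to 2756 to 3893, 2652 to 4407 and 2709 to 2907. The oocyte markers summed to 710 to 879 in WSD+T, above every array of control (208 to 510) and WSD (195 to 608). The 7 tested endothelial markers summed to 1668, 3613 and 482 on WSD replicates 1 to 3, to 1154 to 1856 in control and to 1945 to 2243 in WSD+T. Myeloid marker levels were also used as a covariate, with the values given below, while the part of the other marker levels in the results was not tested. Counts that rest on WSD replicate 3 are given with and without it.

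Of the 159 probe sets, 90 passed the filter on low values (mean signal of at least about 21.2 on the log2 scale used), and these stood for 54 genes. The other 69 had no signal above 46.0 on any array, and the median of their highest signals was 14.7. The 29 genes with no tested probe set included the catalytic subunit gene PRKACA, the regulatory subunit gene PRKAR2A, the phosphodiesterase genes PDE3A and PDE4D, the cyclases ADCY1, ADCY7, ADCY8 and ADCY10, and 7 RGS genes. GNAS, GNAI2, GNAQ, RGS5, AKAP12, FSHR and LHCGR were not analysed here, because no probe set with 1 of these symbols was in hand.

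A probe set is called, below, where the limma p adjusted by Benjamini-Hochberg over all 26383 tested probe sets was under 0.05, and fold changes are on the scale of log2 of signal plus 16. WSD against control called 9 of the 90 member probe sets, 3 higher and 6 lower, where 14.5% of all tested probe sets were called, 4.78% higher and 9.68% lower. WSD+T against control called 2 (2.22%), both higher, against 1.97% of all tested (0.542% higher and 1.43% lower). WSD+T against WSD called 2, 1 higher and 1 lower, against 2.99% of all tested (2.04% higher and 0.948% lower). The shares of members called were thus near those of the array as a whole and are no result about the families as such. These comparisons share arrays in pairs, so their lists are not independent of each other.

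The scaling of the arrays bears on the direction of calls. Under quantile normalization and under median centring the member calls in WSD against control split into 3 higher and 3 lower, and under cyclic loess into 4 higher and 3 lower. Over all tested probe sets the same comparison split into 1262 higher and 2555 lower as deposited and into 1548 and 1679 under median centring. WSD+T against WSD split into 539 and 250 as deposited and 204 and 377 under median centring, as the median log2 difference of all tested probe sets moved from 0.09 to -0.04.

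The larger spread among WSD arrays bears on the counts too. When the spread was allowed to differ by group through array weights, limma called 0 member probe sets in WSD against control (18 at an unadjusted p under 0.05), 10 in WSD+T against control and 1 in WSD+T against WSD, where 5.18%, 12.4% and 0.705% of all tested were called. Without WSD replicate 3, the member counts were 21, 12 and 6, against 25.1%, 6.74% and 5.64% of all tested. Of the 9 probe sets called in WSD against control with all arrays, 8 were also among those 21. With the myeloid score of each array as a covariate (the mean centred log2 value of the 11 markers), limma called 14, 5 and 8 members, against 18.0%, 1.43% and 8.88% of all tested. Of the member probe sets called without it, 8 of 9, 1 of 2 and 2 of 2 were called with it, and those that lost the call were an RGS4 probe set in WSD against control and GNG11 in WSD+T against control.

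Taking for each gene its tested probe set of highest mean, the 54 genes had a median log2 difference of -0.05 in WSD against control, with 1 called higher and 4 lower. The 10002 genes tested in all had a median of -0.08, with 474 higher and 1071 lower (15.4% called). In WSD+T against control the medians were 0.12 for the families, with 1 gene called higher, and -0.01 for all genes, with 62 higher and 173 lower (2.35%). In WSD+T against WSD they were 0.27, with 1 gene called higher, and 0.09, with 206 higher and 79 lower (2.85%).

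**Figure D1:**
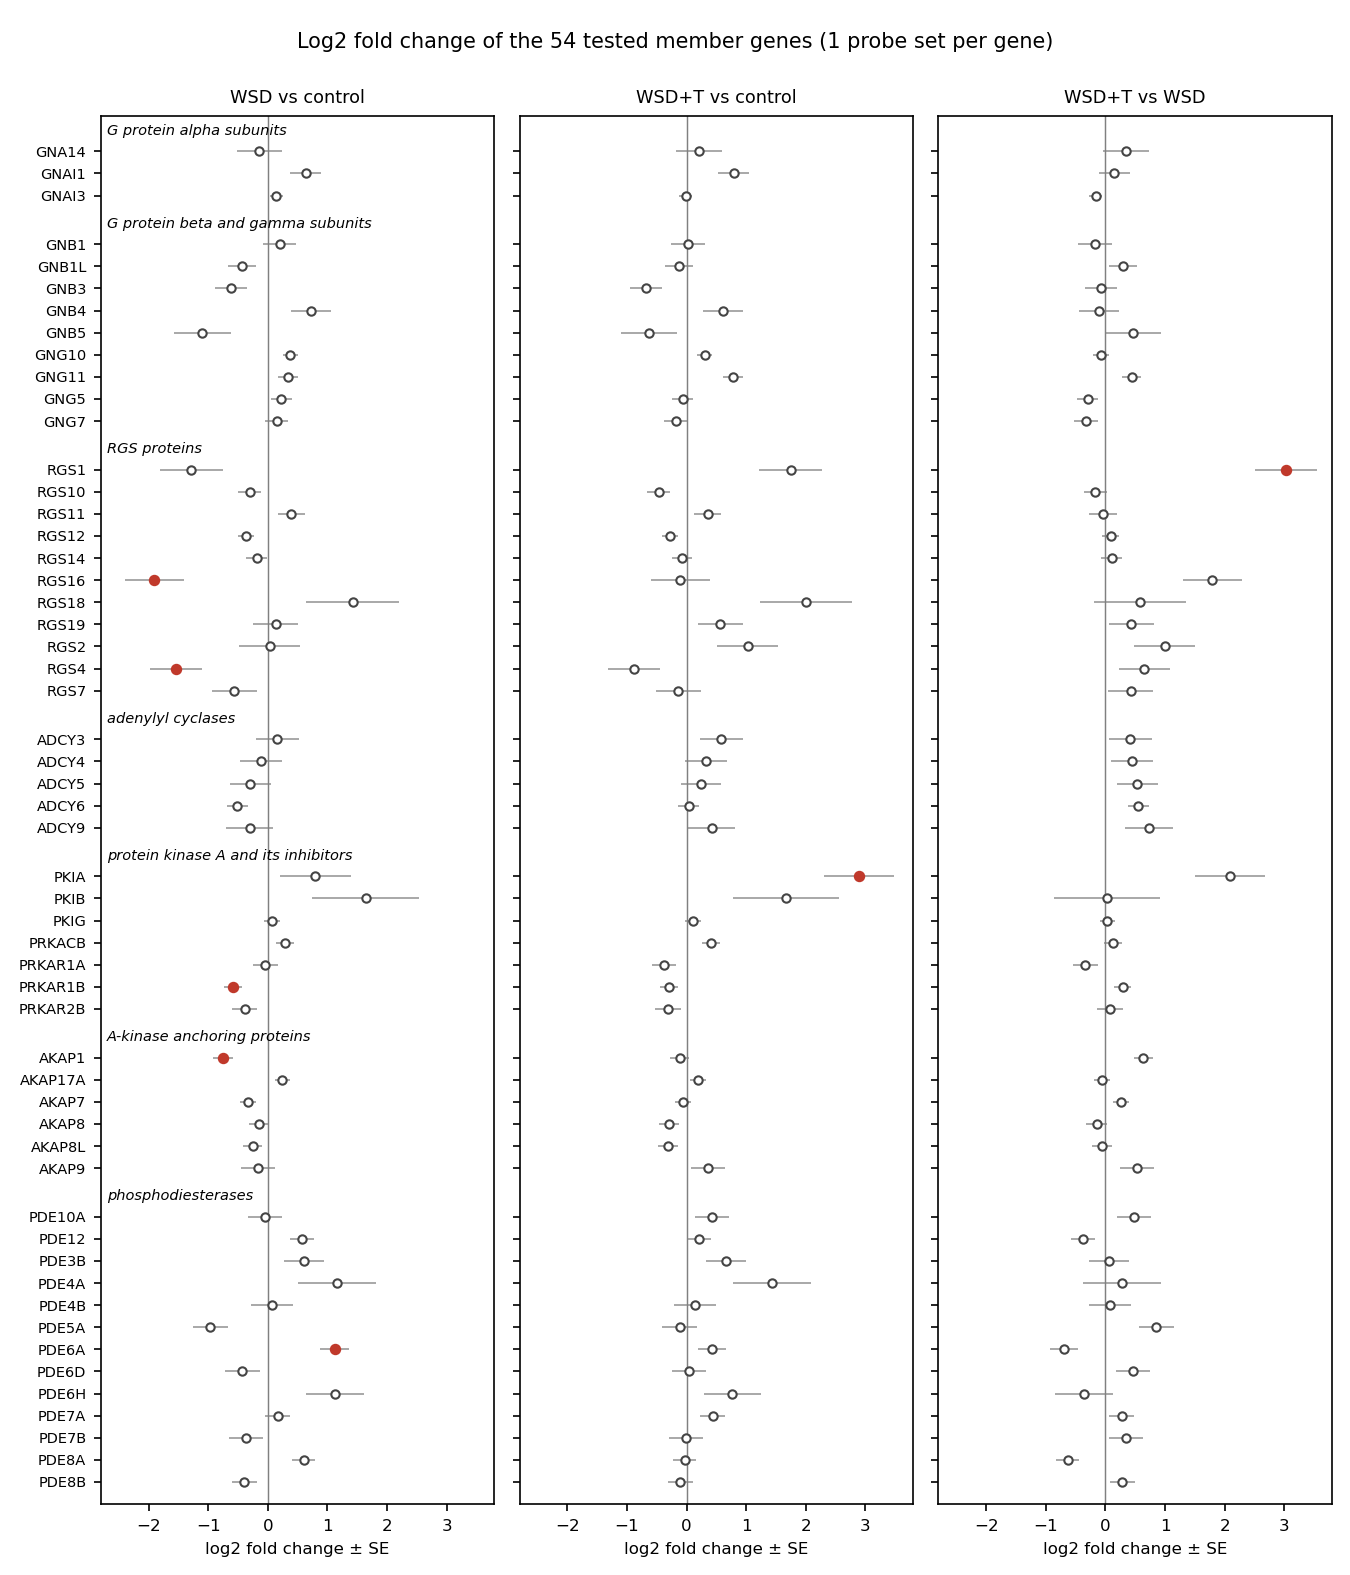
Log2 differences (signal plus 16) of the 54 tested genes by family, with limma's standard error as bars, each gene by its tested probe set of highest mean; the 3 panels are WSD against control, WSD+T against control and WSD+T against WSD, and red marks an adjusted p under 0.05. The red points number 5, 1 and 1 in the 3 panels, and called genes lie on both sides of 0 in the first.

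The G protein alpha subunits couple the receptor to its effector, and those tested were of the inhibitory type and of the Gq class. None of their 3 tested genes was called in any comparison, with 1, 1 and 0 of the representative probe sets at an unadjusted limma p under 0.05 in WSD against control, WSD+T against control and WSD+T against WSD. GNAI1, an inhibitory alpha subunit, read 849.8, 1139 and 1167 on the control arrays, 1539, 1159 and 2423 on the WSD arrays and 1902, 1745 and 1793 on the WSD+T arrays. All 3 WSD+T values lay above every control value, while WSD and control overlapped. The log2 difference was 0.79 for WSD+T against control (SE 0.26, limma adjusted p = 0.152), and its adjusted p was 0.024 with array weights per group. The second GNAI1 probe set gave 0.72 (adjusted p = 0.248), and its limma adjusted p with array weights was 0.065. Array weights called 12.4% of all tested probe sets in this comparison, against 1.97% without them. GNAI3, the related subunit with 4 tested probe sets, differed by 0.03 to 0.51 between WSD and control, and its adjusted p ran from 0.095 to 0.914. GNA14 of the Gq class was close to the filter, with means of 35.2, 34.6 and 42.1 in control, WSD and WSD+T.

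Beta and gamma subunits travel as a pair and act on channels and kinases once freed. Of their 9 tested genes none was called through its brightest probe set (3, 3 and 1 at an unadjusted limma p under 0.05 in the order above), and a second probe set of GNG11 was called. That GNG11 probe set read 502, 538 and 484 on control arrays, 594, 903 and 706 on WSD arrays and 902, 1145 and 916 on WSD+T arrays. Every WSD+T array except the lowest stood above the highest WSD array, and both diet groups lay above all control arrays. The gamma subunit gene rose in WSD+T against control by 0.93 (SE 0.18, limma adjusted p = 0.0421), from a mean of 508 ± 27.1 to 988 ± 136 (SD, n = 3). In WSD against control it differed by 0.50, with an adjusted p of 0.0978. The brighter GNG11 probe set moved the same way, by 0.78 (limma adjusted p = 0.0531), from 1970, 2257 and 1690 in control to 3178, 3920 and 3065 in WSD+T with no overlap. The call held without any 1 of the WSD arrays and was lost without any 1 of the 6 control or WSD+T arrays (adjusted p 0.0928 to 0.172). With the myeloid covariate the difference was 0.88 and the call was lost (adjusted p = 0.0927).

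GNB5, the beta subunit that pairs with RGS7 and its relatives, was lower in all WSD arrays than in control on its brighter probe set, with 328, 532 and 288 in control and 259.9, 59.6 and 265 in WSD. Replicate 2 of WSD lay far below the other WSD arrays, and limma gave -1.10 (SE 0.47, adjusted p = 0.155). The dimmer GNB5 probe set gave -0.79 (adjusted p = 0.0928). RGS7 itself was also lowest in WSD replicate 2, at 153 beside 346 and 558 on the other WSD arrays, and 413 to 539 in control. Its difference between WSD and control was -0.56 (adjusted p = 0.338).

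RGS proteins shorten G protein signals, and this family held 3 of the genes called in any comparison. In WSD against control 2 of its 11 tested genes fell and none rose, in WSD+T against control none was called (3 at an unadjusted limma p under 0.05), and in WSD+T against WSD 1 rose. The medians over its genes were -0.30, -0.08 and 0.44.

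RGS16, which acts on inhibitory and Gq alpha subunits, fell in WSD. Its brighter probe set read 1539, 518 and 416 on control arrays, 129.7, 131 and 305 on WSD arrays, and 696, 498 and 767 on WSD+T arrays. WSD lay wholly below both other groups, and WSD+T overlapped control. The log2 difference of WSD from control was -1.90 (SE 0.49, limma adjusted p = 0.0363), and the dimmer probe set gave -1.76 (adjusted p = 0.0406), although its WSD mean of 12.2 was below the signal of the filter. WSD+T against control gave -0.11 (adjusted p = 0.934), and WSD+T against WSD 1.79 (adjusted p = 0.0839, no overlap). The call of the brighter probe set held without control replicate 3 (adjusted p = 0.0430) and without WSD replicate 3 (adjusted p = 0.0152), and was lost without any 1 of the other 7 arrays (0.0553 to 0.102). Control replicate 3 was the lowest control array and WSD replicate 3 the highest WSD array, so leaving out either enlarged the fall by construction.

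RGS4, a relative of RGS16 that restrains the same classes of alpha subunit, also fell in WSD. The brightest of its 3 probe sets read 2572, 1995 and 1752 in control, 474, 458 and 1612 in WSD and 1009, 1290.1 and 1086 in WSD+T. Replicate 3 of WSD stood near the lowest control array, whereas the other WSD arrays lay far below every control array. No array of either diet group reached a control array on any of the 3 probe sets. The log2 differences of WSD from control were -1.53 (SE 0.43, limma adjusted p = 0.0474), -1.63 (SE 0.46, adjusted p = 0.0459) and -2.02 (SE 0.62, adjusted p = 0.0604). For WSD+T against control the same probe sets gave -0.88, -1.26 and -1.69, with adjusted p of 0.306, 0.188 and 0.193. Among fits that left out 1 array, the call of the probe set at -1.63 held only without WSD replicate 3 (adjusted p = 0.00491), and elsewhere its adjusted p was 0.0675 to 0.122. Replicate 3 was the highest WSD array on this probe set, so leaving it out enlarged the fall by construction. The call at -1.63 was also lost under quantile normalization (0.0597), median centring (0.0617) and cyclic loess (0.0697) and with the myeloid covariate (0.0520), whereas the brightest probe set lost its call under median centring (0.0657) and kept it under the other scalings and with the covariate (-1.18, adjusted p = 0.0335).

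RGS1, known from leukocytes as a brake on chemokine receptors, showed the largest difference among called members. It read 251, 54.1 and 75.7 in control, 23.5, 77.5 and 16.1 in WSD and 405, 352 and 401 in WSD+T. The WSD+T arrays lay above all 6 others, and control and WSD overlapped. WSD+T exceeded WSD by 3.03 (SE 0.53, limma adjusted p = 0.0312), while WSD+T against control gave 1.75 (adjusted p = 0.131) and WSD against control -1.29 (adjusted p = 0.135). The call was lost without WSD replicate 1 (adjusted p = 0.0881) and without WSD+T replicate 1, 2 or 3 (0.144, 0.136 and 0.112). The RGS1 values stood beside summed myeloid signals of 9770, 1921 and 2360 in control, 16116, 23248 and 916 in WSD and 17273, 15452 and 16499 in WSD+T. With the myeloid covariate, WSD+T exceeded WSD by 2.64 (limma adjusted p = 0.0098), WSD differed from control by -1.71 (adjusted p = 0.0186) and WSD+T from control by 0.92 (adjusted p = 0.319). The oocyte markers were likewise above all other arrays in WSD+T, and their part was not tested.

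RGS2, which acts on Gq, had probe sets of unlike behaviour. The brighter read 1180.3, 498 and 393 in control, 641, 1243 and 309 in WSD and 1338, 1158 and 1317 in WSD+T, with overlap in every comparison and a difference of 0.03 between WSD and control (adjusted p = 0.974). The dimmer gave -0.62 (adjusted p = 0.251). RGS12, a large RGS protein, had all WSD arrays of 1 probe set (44.9 to 53.7) below all control arrays (63.8 to 75.1), a log2 difference of -0.37 with an adjusted p of 0.11.

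Adenylyl cyclases make cyclic AMP, and none of the 5 tested genes was called, with 1, 0 and 1 at an unadjusted limma p under 0.05. Their medians were -0.30 in WSD against control, 0.32 in WSD+T against control and 0.54 in WSD+T against WSD, and all 5 genes were positive in each of the latter comparisons, which share the WSD+T arrays. ADCY6, a cyclase held down by calcium and by inhibitory G proteins, read 158, 149.6 and 152 in control, 109, 75.1 and 129 in WSD, and 166, 159 and 147 in WSD+T. Every WSD array was below every array of the other groups. The log2 difference was -0.51 for WSD against control (SE 0.18, limma adjusted p = 0.0886) and 0.55 for WSD+T against WSD (adjusted p = 0.127). ADCY3 gave 0.16, 0.58 and 0.42 in the order of comparisons used above, and the brighter probe set of ADCY9 gave -0.31, 0.42 and 0.72, with overlap between groups in all of these.

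Protein kinase A is a tetramer of regulatory and catalytic subunits, and the small PKI proteins block its catalytic site and carry it out of the nucleus. By the brightest probe set, 1 of 7 tested genes fell in WSD against control, 1 rose in WSD+T against control and none was called in WSD+T against WSD (1 at an unadjusted limma p under 0.05), and the medians were 0.07, 0.11 and 0.08.

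PKIA, the alpha form of the inhibitor, rose in WSD+T against control. Its brighter probe set read 93.05, 29.96 and 31.5 in control, 87.3, 253 and 28.9 in WSD, and 488, 389 and 459 in WSD+T. All WSD+T arrays were above all others, and WSD arrays ranged from the lowest of all to above every control array. The difference between WSD+T and control was 2.89 (SE 0.59, limma adjusted p = 0.0488), from 51.5 ± 36.0 to 445 ± 51.0 (SD, n = 3), and the dimmer probe set gave 2.31 (SE 0.56, adjusted p = 0.0771) from a control mean of 19.5, under the filter's signal. WSD+T against WSD gave 2.09 (adjusted p = 0.0894, no overlap). The call held without WSD replicate 2 (adjusted p = 0.0125) or WSD replicate 3 (0.0150) and was lost without any 1 of the other 7 arrays (0.0636 to 0.209). With the myeloid covariate the brighter PKIA probe set differed by 1.75 (adjusted p = 0.0319) and the dimmer by 1.25 (adjusted p = 0.0833). The oocyte markers, also above all other arrays in WSD+T, were not tested as a covariate.

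PKIB, the beta form, varied chiefly among the WSD arrays. Its brighter probe set read 1051, 1726 and 86.99 there, beside 237, 190.0 and 105 in control and 636, 466 and 623 in WSD+T. WSD+T did not overlap control (1.66, limma adjusted p = 0.346), and WSD overlapped it (1.64, SE 0.89, adjusted p = 0.245). Without WSD replicate 3 the difference of WSD from control was 2.88 on that probe set, with an adjusted p of 0.004. Replicate 3 was the lowest WSD array, so leaving it out raised the WSD mean by construction. The dimmer probe set overlapped control in both diet groups, with 0.31 in WSD (adjusted p = 0.764) and 0.43 in WSD+T (adjusted p = 0.755). Without WSD replicate 3 the dimmer gave 1.09 in WSD against control (adjusted p = 0.0573). With the myeloid covariate the brighter PKIB probe set differed from control by 0.72 in WSD (adjusted p = 0.162) and by -0.10 in WSD+T (adjusted p = 0.929). The dimmer gave -0.30 and -0.74 in the same order (adjusted p of 0.467 and 0.261). PKIG, the gamma form, ranged from 402 to 503 over all 9 arrays and differed by 0.07 in WSD and 0.11 in WSD+T from control (adjusted p of 0.751 and 0.718).

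The catalytic subunit gene PRKACB was called in WSD against control only through its dimmest probe set, at 2.02 (SE 0.36, limma adjusted p = 0.0110). That probe set read 15.7, 2.63 and 0.49 in control, 39.6, 102 and 82.9 in WSD, and 27.7, 8.74 and 26.3 in WSD+T, with no overlap between WSD and the others. The means of control (6.28 ± 8.23) and WSD+T (20.9 ± 10.6) were below the filter's signal, so the probe set was tested only through its WSD values (74.7 ± 31.8; SD, n = 3). Both brighter PRKACB probe sets gave small differences, 0.29 (adjusted p = 0.235) and 0.19 (adjusted p = 0.592). The brightest read 1262, 1074 and 1101 in control and 1250.2, 1665 and 1312 in WSD, with overlap. The dimmest PRKACB probe set did not pass the filter without WSD replicate 2 or 3. In the 7 other fits without 1 array its adjusted p was 0.0131 to 0.0416, which says nothing about stability, since the test rests on the group where the probe set is high.

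Among regulatory subunits, PRKAR1B fell in WSD. It read 35.7, 38.3 and 49.03 in control, 18.9, 22.2 and 24.8 in WSD, and 26.4, 30.3 and 34.4 in WSD+T, so the 3 groups did not overlap, with WSD+T between the others. The difference of WSD from control was -0.58 (SE 0.15, limma adjusted p = 0.0325). It was lost under quantile normalization (0.0961), median centring (0.0830) and cyclic loess (0.0981), and held among fits without 1 array only without control replicate 1 (0.0499) or WSD replicate 3 (0.0247). These were the lowest control array and the highest WSD array, so leaving out either enlarged the fall by construction. PRKAR2B, the regulatory subunit that rises with follicle-stimulating hormone in granulosa cells, read 3247, 3654 and 4140.1 in control, 3089, 2003 and 3518 in WSD and 2956, 3171 and 2756 in WSD+T. Its differences from control were -0.39 in WSD and -0.31 in WSD+T (adjusted p of 0.251 and 0.473). PRKAR1A gave -0.04 and -0.56 on its probe sets in WSD against control (adjusted p of 0.916 and 0.134).

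**Figure D2:**
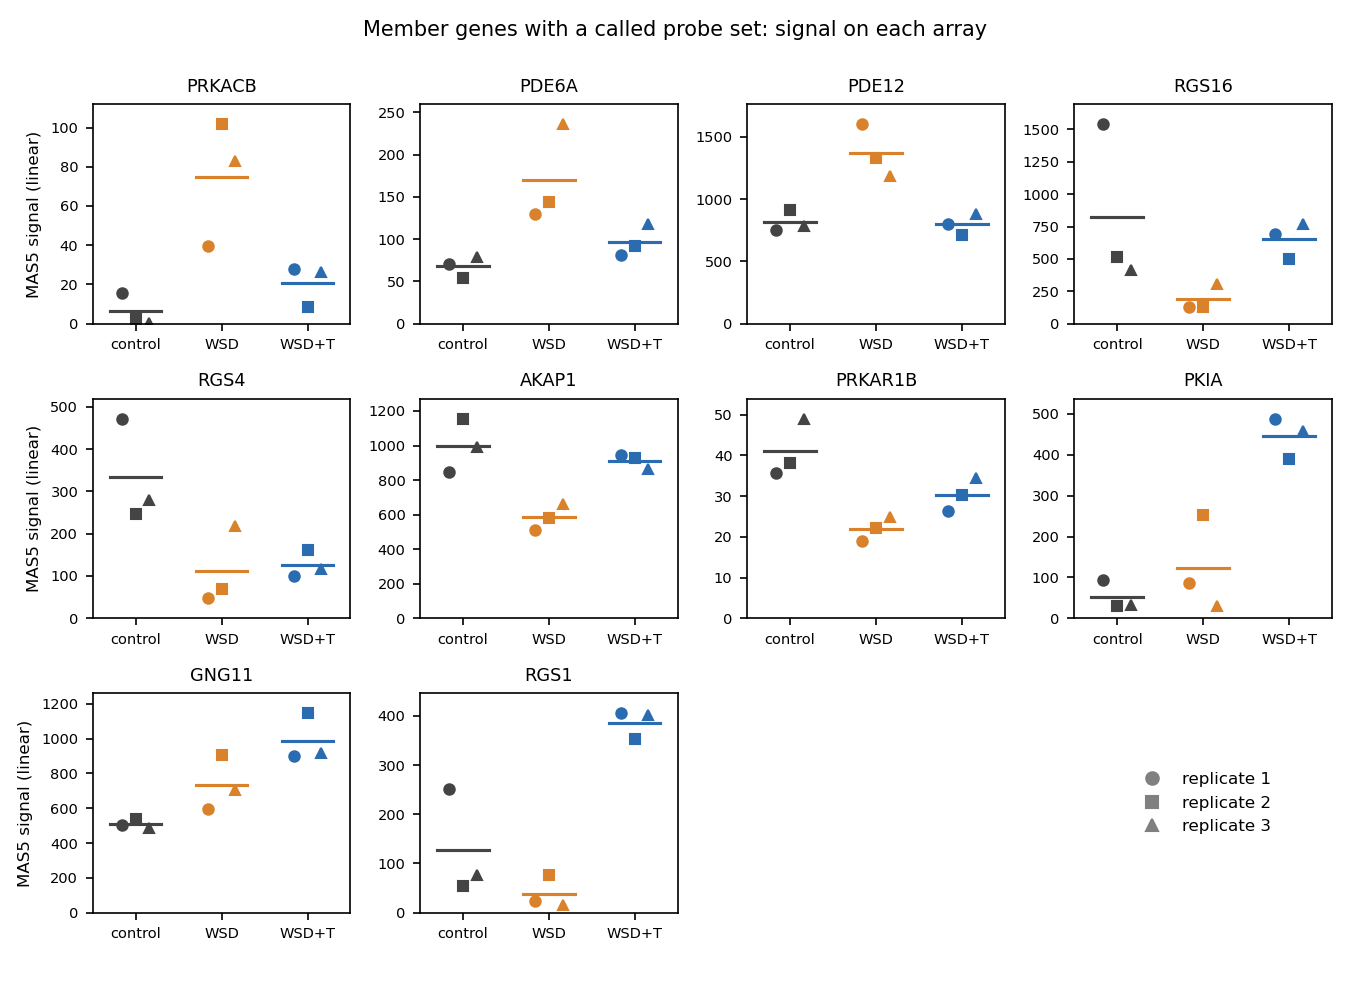
Linear MAS5 signal on each of the 9 arrays for the 10 genes called in any comparison, 1 panel per gene (its probe set of smallest p, which for RGS4 is the one at -1.63) with its own axis; horizontal lines are group means and the 3 markers of a group are its replicates. The means of RGS16, RGS4, AKAP1 and PRKAR1B are lowest in WSD, those of PDE12, PDE6A and PRKACB highest in WSD, and those of RGS1, PKIA and GNG11 highest in WSD+T.

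A-kinase anchoring proteins fix the kinase at a place in the cell. Of their 6 tested genes, 1 fell in WSD against control and none was called in the comparisons with WSD+T (0 and 1 at an unadjusted limma p under 0.05 for control and WSD as the partner). AKAP1, the anchor on the outer mitochondrial membrane, read 845, 1155 and 992 in control, 509, 582 and 662 in WSD, and 946, 927 and 866 in WSD+T. WSD lay below every array of both other groups, and WSD+T overlapped control. It fell in WSD by 0.75 on the log2 scale (SE 0.16, limma adjusted p = 0.0190), from 997 ± 155 to 585 ± 76.6 (SD, n = 3). WSD+T against control gave -0.12 (adjusted p = 0.747), and WSD+T against WSD 0.64 (adjusted p = 0.0688). Its dimmer probe sets gave -0.43 (adjusted p = 0.0958) and -0.18 (adjusted p = 0.588). Its call was lost when control replicate 2 (0.0622), control replicate 3 (0.0533) or WSD replicate 1 (0.0551) was left out. AKAP9, the anchor at centrosome and Golgi, ran from 965 to 1059 in WSD+T above all control arrays (726 to 830.0), while WSD spanned 429.8 to 1073, and no comparison was called.

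Cyclic nucleotide phosphodiesterases end the signal, each with a preference for cyclic AMP, cyclic GMP or both. The family was taken by symbol and also holds PDE12, so its counts and medians are not those of such enzymes alone. By brightest probe set 1 of 13 tested genes rose in WSD against control, PDE6A, and none was called in WSD+T against control (0 at an unadjusted limma p under 0.05) or WSD+T against WSD (3). A second probe set of 1 further gene, PDE12, was called as well. The medians over genes were 0.17, 0.20 and 0.27.

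PDE6A, the cyclic GMP phosphodiesterase subunit known from rod photoreceptors, read 70.1, 53.9 and 79.4 in control, 130.0, 144 and 236 in WSD, and 81.2, 91.4 and 118 in WSD+T. The groups did not overlap, with WSD highest and control lowest. The difference of WSD from control was 1.12 (SE 0.24, limma adjusted p = 0.0183), and that of WSD+T from control 0.43 (adjusted p = 0.361). Leaving out 1 array lost the call only for control replicate 2 (0.0637). PDE12, which by function is no cyclic nucleotide phosphodiesterase, read 752, 914 and 786 in control, 1602, 1329.5 and 1189 in WSD, and 803, 712 and 883 in WSD+T. It rose in WSD against control by 0.73 (SE 0.16, limma adjusted p = 0.0211) and was lower in WSD+T than in WSD by a log2 difference of -0.76 (adjusted p = 0.0470), with no overlap in either comparison. The other tested PDE12 probe set gave 0.58 (adjusted p = 0.0917) and -0.38 (adjusted p = 0.337). The first call was lost when control replicate 1 (0.0613), control replicate 3 (0.0627) or WSD replicate 1 (0.0581) was left out, and the second held only without WSD replicate 2 (0.0486) or WSD replicate 3 (0.0315), with 0.0590 to 0.184 elsewhere. Replicate 3 was the lowest WSD array on this probe set, so leaving it out enlarged the second difference by construction.

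Several phosphodiesterase genes came near the threshold without passing it. PDE8A, a high-affinity cyclic AMP enzyme, read 312, 435 and 263 in control, 452, 539 and 539.9 in WSD and 299, 339 and 329.6 in WSD+T on its brighter probe set. WSD was above all arrays of both other groups, with 0.60 against control (SE 0.19, limma adjusted p = 0.0664) and -0.63 for WSD+T against WSD (adjusted p = 0.103). PDE5A, specific for cyclic GMP, was lower in WSD on all 4 tested probe sets, by log2 differences from -0.97 to -0.38, and its brightest read 617, 957 and 406 in control and 275, 412 and 265 in WSD (adjusted p = 0.0611). WSD replicate 2 overlapped the lowest control array there. PDE4B, PDE7B and PDE10A, which act on cyclic AMP, differed between WSD and control by 0.06, -0.37 and -0.05, with adjusted p of 0.921, 0.411 and 0.919.

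Some members differed more among the 3 WSD arrays than between groups. The median SD of the 90 member probe sets on the log2 scale was 0.25 in control, 0.43 in WSD and 0.14 in WSD+T, where all tested probe sets had 0.22, 0.31 and 0.14. An SD over 1 was found in WSD for 12 members (13.3%), against 6.73% of all tested. Members with WSD replicate 2 highest, replicate 1 between and replicate 3 lowest, and over 1 log2 unit apart from end to end, numbered 16 (17.8%, against 11.5% of all tested). Those in the opposite order numbered 11 (12.2%, against 6.51%). No test was made of these shares.

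Genes of the first kind included RGS18, an RGS protein known from blood platelets and myeloid cells, with 89.3, 264 and 8.33 in WSD beside 37.7, 16.05 and 5.74 in control and 149, 75.4 and 142 in WSD+T. PDE4A, specific for cyclic AMP, read 434, 1090.1 and 105 in WSD beside 216, 134 and 140.4 in control and 438, 474 and 459.5 in WSD+T. The dimmer tested RGS10 probe set read 582, 1194 and 248 in WSD beside 455, 287 and 250.5 in control and 712, 610.0 and 633 in WSD+T. On these 3 probe sets WSD replicate 3 stood within the control range or below it, and WSD+T lay wholly above control. Their differences of WSD from control were 1.42, 1.16 and 0.78, with limma adjusted p of 0.245, 0.263 and 0.300. Without WSD replicate 3 they were 2.36, 2.00 and 1.34, with adjusted p of 0.015, 0.009 and 0.024. These 3 were picked for having replicate 3 lowest among the WSD arrays, so leaving it out enlarged the differences by construction. The latter p values are therefore no independent evidence of a difference. The brighter RGS10 probe set went the opposite way, at -0.30 in WSD against control (adjusted p = 0.313). In WSD+T it lay wholly below control, at -0.47 (adjusted p = 0.232). The myeloid score was 0.91, 1.76 and -2.58 on the same WSD arrays, 0.12, -1.76 and -1.51 in control and 1.13, 0.86 and 1.08 in WSD+T. With this score as a covariate, the differences of WSD from control were 0.64, 0.49 and 0.29 for RGS18, PDE4A and the dimmer RGS10 probe set, with adjusted p of 0.186, 0.203 and 0.328. Those of WSD+T from control went from 2.00, 1.43 and 0.99 to 0.49, 0.14 and 0.06, with adjusted p of 0.532, 0.850 and 0.929. The endothelial markers followed the same order on the WSD arrays, and their part was not tested.

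**Figure D3:**
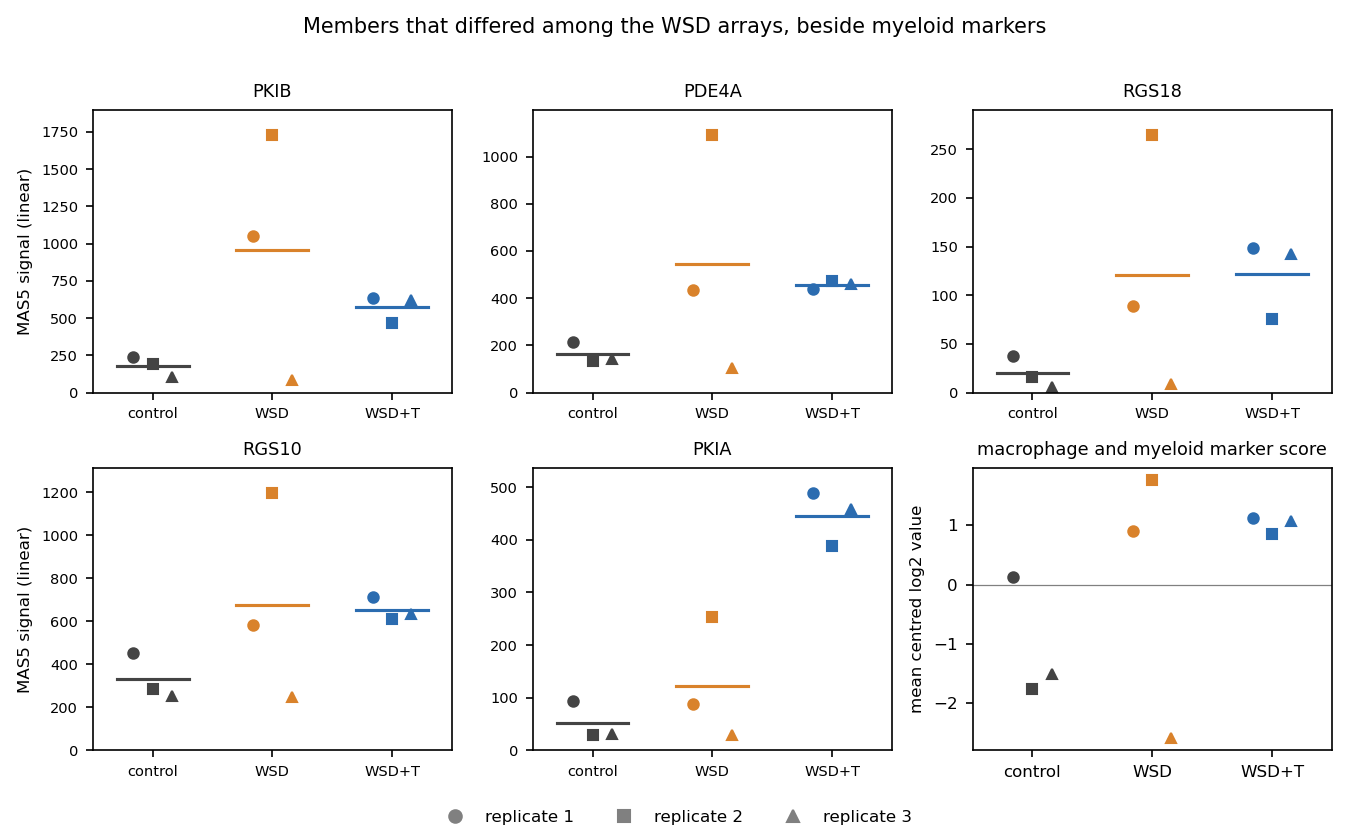
Values on each of the 9 arrays for PKIB, PDE4A, RGS18, RGS10 and PKIA (genes chosen after their values were seen) and for the score of the 11 myeloid markers, 1 panel each, with the means of the genes as horizontal lines. Each gene is shown by its brightest tested probe set, except RGS10, which is shown by its dimmer one. In WSD replicate 2 is highest and replicate 3 lowest in each panel, while the 3 WSD+T arrays span a narrower range than the WSD arrays.

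Receptors and other genes of the pathway were taken from 4 lists, whose shares of genes called are to be read beside the 15.4%, 2.35% and 2.85% of all tested genes in the order of comparisons used above. The lists were chosen with earlier results of these data known, so a higher share is no evidence about a list as such. Of 28 receptor genes with a symbol, 15 were tested: 4 rose in WSD against control and none fell, 1 rose in WSD+T against control, and 1 fell in WSD+T against WSD, with medians of 0.27, 0.27 and 0.31 (26.7%, 6.67% and 6.67% called). GPR3, a receptor that drives cyclic AMP in oocytes without a ligand, read 39.00, 20.6 and 33.7 in control, 163, 175 and 159 in WSD, and 45.5, 27.05 and 89.3 in WSD+T. WSD was above all other arrays, by 1.97 against control (SE 0.30, limma adjusted p = 0.00702), a call that held without any 1 of the 9 arrays and was lost with array weights per group (0.0739). It was lower in WSD+T than in WSD (-1.47, adjusted p = 0.0442), and with 1 array left out that call held only without WSD replicate 3 (0.0493), the lowest WSD array. The protease-activated receptor gene F2RL1 rose by 1.88 in WSD, the serotonin receptor gene HTR7 by 2.02 and, named after its value was seen, the adenosine receptor gene ADORA2B by 2.08 (adjusted p of 0.0136, 0.0149 and 0.0377). HTR7 also rose in WSD+T against control, by 2.01 (adjusted p = 0.0458). F2RL1 was lost without control replicate 2 (0.0512), and HTR7 in WSD without control replicate 2 (0.0528) or 3 (0.0513). In WSD+T, HTR7 was lost without control replicate 2 (0.130) or 3 (0.141) or any 1 WSD+T array (0.107 to 0.204). With 1 array left out, the ADORA2B call in WSD held only without control replicate 1 (0.0360) or WSD replicate 3 (0.0133). These were the highest control array and the lowest WSD array, so leaving out either enlarged the difference by construction.

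Of 17 genes for receptor kinases, arrestins and G protein modulators, 15 were tested, and 2 fell in WSD against control, 1 fell in WSD+T against control and none was called in WSD+T against WSD (3 at an unadjusted limma p under 0.05), or 13.3%, 6.67% and 0. GPSM2, which binds inhibitory alpha subunits in their GDP form and orients the spindle, read 689.8, 736 and 545 in control, 285, 221 and 289.7 in WSD, and 291, 261 and 259.7 in WSD+T. Both diet groups lay below every control array, by -1.26 (SE 0.17, limma adjusted p = 0.00434) and -1.22 (SE 0.17, adjusted p = 0.0175). The difference in WSD kept its call in every alternative run, while that in WSD+T lost it without control replicate 2 (0.0545) or any 1 WSD+T array (0.0582 to 0.115). RIC8A, a chaperone and exchange factor for alpha subunits, fell in WSD (-0.74, adjusted p = 0.0236), and lost the call without control replicate 1 (0.0608) or 3 (0.0734) and with array weights (0.0661).

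Among 18 tested genes of cyclic AMP effectors and CREB factors, 2 rose and 2 fell in WSD against control, none was called in WSD+T against control (4 at an unadjusted limma p under 0.05) and 1 fell in WSD+T against WSD, or 22.2%, 0 and 5.56%. CREM, a transcription factor and repressor of cyclic AMP response elements, read 279.9, 239.6 and 234 in control, 769, 936 and 497 in WSD, and 372, 369 and 369 in WSD+T. The groups did not overlap, and WSD exceeded control by 1.45 (SE 0.22, limma adjusted p = 0.00634) in every alternative run. SIK2, a kinase that holds CREB coactivators in the cytoplasm, rose in WSD by 1.02 (adjusted p = 0.0215) and was lower in WSD+T than in WSD (-1.30, adjusted p = 0.0312). The first SIK2 call was lost without control replicate 2 (0.0503) or 3 (0.0704), and the second without WSD replicate 1 (0.0752) or any 1 WSD+T array (0.107 to 0.143). RAPGEF4, the exchange factor EPAC2 that binds cyclic AMP, fell in WSD by 0.94 on the log2 scale (adjusted p = 0.0162), and the cyclic AMP-binding membrane protein gene POPDC2 by 0.99 (adjusted p = 0.0122). RAPGEF4 lost its call without control replicate 3 (0.0513), and with array weights both lost it (0.0575 and 0.0880).

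Of 22 tested genes known to respond to cyclic AMP, 5 rose and 4 fell in WSD against control, 3 fell in WSD+T against control and 2 fell in WSD+T against WSD, with medians of 0.20, -0.03 and -0.25 (40.9%, 13.6% and 9.09% called). No test was made of these shares. This list too was chosen with earlier results of these data known, so the shares are no evidence that cyclic AMP targets changed more than other genes. AREG, an EGF-like ligand, read 31.4, 12.7 and 17.8 in control, 115, 197 and 165 in WSD and 58.2, 33.1 and 70.8 in WSD+T. It rose in WSD by 2.26 (SE 0.28, limma adjusted p = 0.00392) and was lower in WSD+T than in WSD (-1.33, adjusted p = 0.0472). The inhibin subunit gene INHBB fell in both diet groups against control (-2.31 in WSD and -2.05 in WSD+T), as did the steroid enzyme gene HSD3B2 (-1.04 and -2.26), with limma adjusted p from 0.00323 to 0.0152. INHBB and INHA are also among the granulosa markers, whose summed signal is given above. The calls of all 3 genes in WSD held in every alternative run. The INHBB means in WSD (16.1) and WSD+T (20.7) were below the filter's signal, beside 138 in control. INHBB was thus tested only through its control values, and its held call says nothing about stability. The AREG call in WSD+T against WSD was lost without any 1 of the 9 arrays (0.0568 to 0.174). In WSD+T against control, HSD3B2 was lost without WSD+T replicate 1 (0.0696) or 3 (0.101), and INHBB without control replicate 2 (0.0509) or 3 (0.0535) or any 1 WSD+T array (0.0516 to 0.111).

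**Figure D4:**
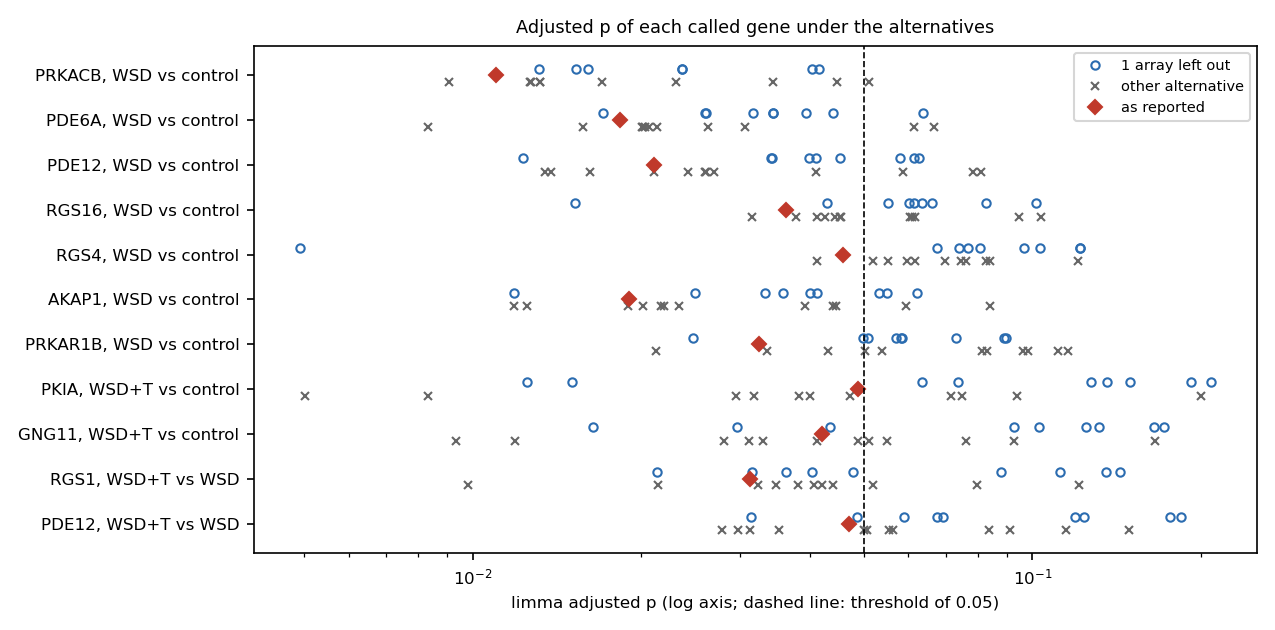
Limma adjusted p, on a log axis, of the 11 called pairs of gene and comparison under the reported settings, with 1 array left out and under each other alternative; the dashed line is 0.05. All but PRKACB cross the line in some fit with 1 array left out. PRKACB has 7 such fits, since its probe set was tested only through its WSD values, and it crosses the line with array weights per group.

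None of the 13 calls of member probe sets was made in all 9 fits without 1 array. Some calls were lost under other settings too. With a pseudocount of 1, the limma adjusted p was 0.0717 for PKIA and 0.0549 for GNG11 in WSD+T against control, 0.0552 for the RGS4 probe set at -1.63 and 0.0565 for PDE12 in WSD+T against WSD. Without the filter on low values these 4 had 0.0748, 0.0511, 0.0761 and 0.0507, and the brighter RGS16 probe set had 0.0605. The dimmer RGS16 probe set lost its call under quantile normalization (0.0623) and cyclic loess (0.0672), and PDE12 in WSD+T against WSD under quantile normalization (0.0554). The plot of adjusted p under the alternatives shows these values for each gene.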

How the data were processed

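The authors deposited 1 linear intensity for each probe set and array, made with MAS5 per the submitters' processing notes. Detection calls were not used here, and the genome build is not given in the sources used here. After leaving out the lowest and highest 2% of probe sets, the mean was between 198.9 and 199.1 on all 9 arrays. Control probe sets (99) were left out, and 16 was added to the signal of the other 52766 before taking log2, so changes of low genes are understated. Testing was limited to the 26383 with a mean at or above the median of all (5.22, a signal of about 21.2).

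Group means were estimated over the 9 arrays together in limma 3.58.1 (lmFit, eBayes, R 4.3.3, two-sided, 6 residual and 2.69 prior degrees of freedom), with Benjamini-Hochberg adjustment at 0.05. The procedure was tested on simulated data in which all groups had the same spread. The mean within-group variance of the real arrays was 0.152 in control, 0.330 in WSD and 0.0411 in WSD+T. The simulation therefore does not show how the procedure behaves under such unequal spread. The number of arrays limits the precision. The array's annotation gave a single symbol to 24956 of these probe sets, more than 1 to 361, and did not list 27449. Of the 159 member probe sets, 156 had an Entrez ID in the RefSeq gene table for the species, all with the same symbol. Probe sequences were not checked, so probe sets of a gene may differ in the transcripts they measure.

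The members and lists were chosen with earlier results of these data known. Named genes were up to 12 called members in each direction and comparison, a set of members named whatever their p, and up to 3 called genes of each other list by smallest p. Other members named were chosen after their values were seen. Marker scores are means of centred log2 values. Alternatives changed the pseudocount, filter, normalization, arrays in the model, weights, a replicate block, a myeloid covariate and each array in turn. Figures used matplotlib 3.10.9 in Python 3.11.15.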

Additional observations from a re-analysis of the deposited data

How the results depend on the processing

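Counts of member probe sets called changed with these settings, and the share of all probe sets called is given in brackets. In WSD against control (9 of 90 called, 14.5%), limma called 4 of the 41 left by the stricter filter, or 9.76% of them (18.2%), 1 in a fit to both groups alone (3.26%), 0 with array weights per group (5.18%, and 18 members at an unadjusted p under 0.05), 4 with WSD+T replicates 1 and 3 averaged (9.64%) and 14 with the myeloid covariate (18.0%). In WSD+T against control (2 called, 1.97%), it called 0 with a pseudocount of 1 (1.34%, 15 unadjusted), 0 with no filter (0.787%, 23 unadjusted), 14 in a fit to both groups alone and 10 with array weights (12.4% each), 0 with the averaged replicates (0 of all, 6 unadjusted) and 5 with the covariate (1.43%). In WSD+T against WSD (2 called, 2.99%), it called 1 with a pseudocount of 1 (2.24%), 4 with no filter (1.29%), 1 under quantile normalization (2.38%), 0 in a fit to both groups alone (0.0341%, 13 unadjusted), 1 with array weights (0.705%), 0 with the averaged replicates (0 of all, 12 unadjusted) and 8 with the covariate (8.88%). The replicate block gave 3, 0 and 0 (8.42%, 0.0114% and 0.00379%, with 25, 14 and 13 unadjusted), and same-numbered arrays correlated in their residuals from -0.30 to 0.19, so the numbers are not taken as pairs. Leaving out 1 array gave 3 to 21, 0 to 12 and 0 to 6. For the named genes, 1323 values under alternatives kept their side of the threshold, 229 lost the call, 22 gained it and none that was called changed direction. Values without a call in either fit were counted by side of the threshold alone, so some of the 1323 changed direction. With all tested probe sets in place of 1 per gene, the family medians were -0.09, 0.04 and 0.20 in the order above. Signals near the filter limit the dim probe sets of PRKACB, RGS16 and PKIA. The same holds for PRKAR1B (WSD mean of 22.0), AREG and HTR7 (control means of 20.6 and 19.7) and POPDC2 and INHBB (WSD means of 12.5 and 16.1). The causes of these changes were not tested.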
